A study of Mus musculus with 13 samples.

Results

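The 10 aquaporin genes Aqp1, Aqp2, Aqp3, Aqp4, Aqp5, Aqp6, Aqp7, Aqp8, Aqp9 and Aqp11 were followed through the livers and kidneys of mice that had developed from vitrified or fresh oocytes. They were taken by gene symbol from a table of 22298 genes, and all 10 symbols were found, once each. The mice were CD-1 (ICR), an outbred laboratory stock, sampled as adult offspring at 8 weeks of age. Vitrification cools an egg so fast that it sets like glass instead of forming ice, and was done here on a Cryotop carrier. Thawed eggs and fresh eggs were then both fertilised in vitro, cultured, and transferred as cleaved embryos to pseudopregnant females, so that mice of fresh origin had also passed through in vitro fertilisation and transfer. RNA sequencing of tissue pieces gave 4 kidney libraries of vitrified origin, 3 kidney libraries of fresh origin, 3 liver libraries of vitrified origin and 3 liver libraries of fresh origin. By their labels the libraries are biological replicates, but sex, litter and batch are not stated, so a p-value here reflects only how far these samples spread.

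Aquaporins are membrane channels that let water cross a cell along its osmotic gradient, and the subgroup called aquaglyceroporins, here Aqp3, Aqp7 and Aqp9, also passes glycerol. In the kidney, Aqp1 carries water out of the proximal tubule and the descending thin limb, while vasopressin places Aqp2 in the apical membrane of collecting duct principal cells, from which Aqp3 and Aqp4 return the water to the blood side. In the liver, Aqp9 takes up glycerol for glucose synthesis and Aqp8 passes water into bile. Aqp6 lies in vesicles of acid-secreting intercalated cells, Aqp11 in the endoplasmic reticulum, and Aqp5 is best known from salivary glands, tear glands and lung.

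The promoters of the collecting duct pair Aqp2 and Aqp3 and of the hepatocyte pair Aqp8 and Aqp9 are shown because the first 2 were high in the kidney and nearly without counts in the liver, and the other 2 the reverse. Each window was taken from RefSeq on the build GRCm38.p6. It runs from 250 bases before an annotated transcript start through the 50 bases from that start on. The window shown for Aqp9 lies inside the annotated span of the gene, chr9:71110659-71167849, and not at its outer end. The strand given is that of the gene, and capitals mark a match to 1 of 6 searched motifs on either strand.
Aqp2, chr15:99578806-99579105, plus strand: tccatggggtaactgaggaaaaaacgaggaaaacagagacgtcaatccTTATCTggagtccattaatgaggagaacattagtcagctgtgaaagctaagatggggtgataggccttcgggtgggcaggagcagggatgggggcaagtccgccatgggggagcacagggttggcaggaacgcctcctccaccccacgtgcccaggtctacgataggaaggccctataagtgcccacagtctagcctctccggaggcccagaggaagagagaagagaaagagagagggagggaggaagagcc
Aqp3, chr4:41098134-41098433, minus strand: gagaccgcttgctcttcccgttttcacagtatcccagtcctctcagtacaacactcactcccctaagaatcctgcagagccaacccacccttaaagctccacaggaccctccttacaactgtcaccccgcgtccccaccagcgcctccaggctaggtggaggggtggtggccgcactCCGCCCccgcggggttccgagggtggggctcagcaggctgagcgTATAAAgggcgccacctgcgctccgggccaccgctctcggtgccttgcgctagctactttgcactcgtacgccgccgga
Aqp8, chr7:123462044-123462343, plus strand: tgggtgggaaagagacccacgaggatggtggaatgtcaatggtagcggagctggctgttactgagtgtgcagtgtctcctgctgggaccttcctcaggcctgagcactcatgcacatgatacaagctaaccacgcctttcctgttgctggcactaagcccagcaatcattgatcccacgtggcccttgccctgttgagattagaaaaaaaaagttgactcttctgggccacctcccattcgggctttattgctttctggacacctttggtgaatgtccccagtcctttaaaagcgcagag
Aqp9, the first of 2 annotated starts, chr9:71163240-71163539, minus strand: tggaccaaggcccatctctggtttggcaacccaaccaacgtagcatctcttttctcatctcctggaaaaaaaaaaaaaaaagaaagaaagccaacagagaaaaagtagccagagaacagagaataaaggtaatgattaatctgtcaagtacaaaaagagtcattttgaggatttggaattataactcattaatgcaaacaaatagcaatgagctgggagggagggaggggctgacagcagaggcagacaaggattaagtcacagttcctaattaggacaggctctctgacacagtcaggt

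The letters searched for the TATA box were TATAAA, and for the GC box of Sp1 family factors GGGCGG. The cAMP response element was searched as TGACGTCA and the site of GATA factors as AGATAA. The liver factors were HNF4, searched as CAAAGTCCA, and HNF1, with its palindromic site. The capitals in Aqp2 are AGATAA on the reverse strand, with the leftmost base at position -202 when the annotated start is 0. AGATAA occurred in 11.2% of the 32851 promoter windows of the same table. The capitals in Aqp3 are GGGCGG on the reverse strand at -73 and TATAAA at -29, motifs held by 35.7% and 13.6% of windows. None of the 6 motifs was found in the windows of Aqp8 or Aqp9, nor in those of Aqp6 and Aqp11. The windows of Aqp9 and Aqp6 lie inside the wider annotated spans of these genes, so the sequence before their outermost starts was not searched. The cAMP response element, the HNF4 site and the HNF1 site were in 1.79%, 0.475% and 0.00913% of all windows and in none of the 9 aquaporins with a window that could be shown. GC content was 56.0% in the Aqp2 window, 64.0% in Aqp3, 52.0% in Aqp8 and 41.3% in Aqp9, against a median of 52.7% over all windows. The annotation of that build places Aqp2, Aqp5 and Aqp6 side by side on chromosome 15 with 0 genes starting and ending between them, and Aqp7 and Aqp3 on chromosome 4 with 1 gene, Gm25637, between them.

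The libraries held between 16073245 and 19964918 estimated counts. Their organ labels fitted the markers. The summed level of 10 hepatocyte genes lay between 390 and 3269 CPM, counts scaled to a common library total, in the kidneys and between 72813 and 182757 CPM in the livers, and that of 11 proximal tubule genes between 15104 and 41603 CPM in the kidneys and between 64.6 and 91.97 CPM in the livers. Of the 13 libraries, 3 were near 0 for the summed Y-linked genes Ddx3y, Uty, Kdm5d and Eif2s3y, at 0.170 CPM in kidney vitrified 4, 1.25 CPM in kidney fresh 3 and 0.778 CPM in liver fresh 3, while the other 10 held between 137 and 205 CPM. The summed stress genes Fos, Egr1, Jun, Hspa1a and Hspa1b were highest in kidney vitrified 3 at 1048 CPM and, among livers, in liver vitrified 3 at 416 CPM. In bulk tissue, fewer cells of a type and less RNA per cell cannot be told apart.

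**Figure D1:**
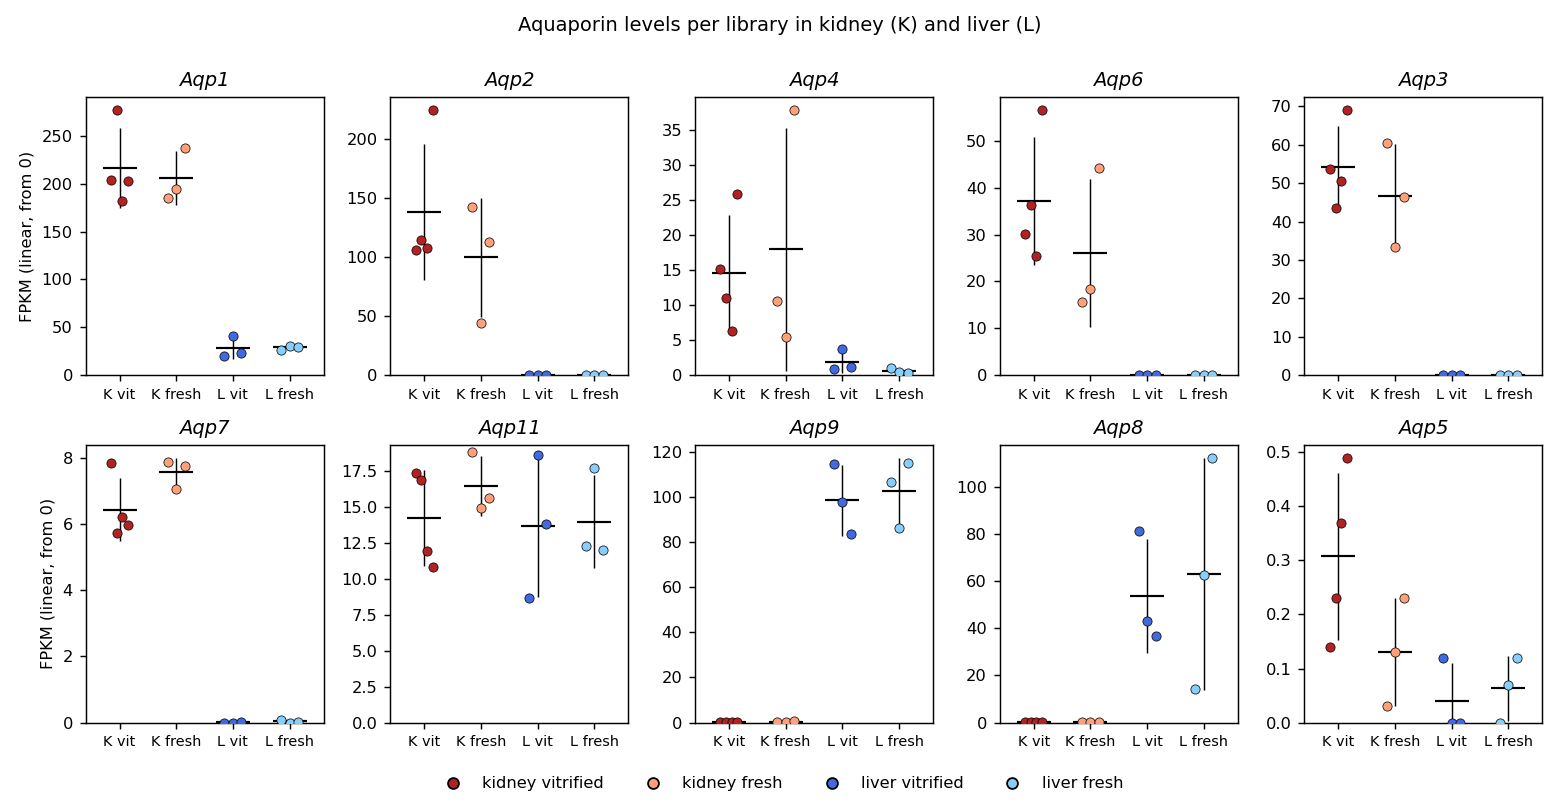
Levels of the 10 aquaporins in FPKM, fragments scaled to transcript length and library size (vertical axes, linear from 0, a scale of its own for each gene) in each library, with kidney (K) left of liver (L) and vitrified origin (vit) left of fresh origin. Points are libraries, the horizontal line is the mean and the vertical line ± 1 SD, drawn no lower than 0 (n = 4, 3, 3 and 3); Aqp1, Aqp2, Aqp3, Aqp4, Aqp6 and Aqp7 lie higher in every kidney than in every liver, Aqp8 and Aqp9 the other way round, and Aqp11 overlaps between organs.

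Kidney and liver differed in their leading aquaporins and shared Aqp1 and Aqp11. Levels between genes are compared per length, as FPKM, fragments scaled to transcript length and library size. Over the 7 kidneys the order by mean level was Aqp1 at 212 ± 34.2 FPKM, Aqp2 at 122 ± 54.1, Aqp3 at 51.0 ± 11.6, Aqp6 at 32.4 ± 14.6, Aqp4 at 16.01 ± 11.8, Aqp11 at 15.2 ± 2.91 and Aqp7 at 6.91 ± 0.940 FPKM (SD). Aqp5, Aqp9 and Aqp8 followed at 0.231 ± 0.156, 0.227 ± 0.181 and 0.216 ± 0.0850 FPKM. Aqp1 exceeded Aqp2 in 6 of 7 kidneys, and Aqp2 exceeded Aqp3, Aqp3 exceeded Aqp6 and Aqp6 exceeded Aqp4 within each of the 7, although the ranges of each of these neighbours overlapped across libraries. Aqp4 and Aqp11 did not differ beyond their spread, with Aqp4 higher in 2 of 7 kidneys. The ranges of Aqp11 and Aqp7 did not overlap. By rank, Aqp1 was the 304th and Aqp2 the 579th of 22298 genes by mean kidney FPKM.

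Over the 6 livers the order was Aqp9 at 101 ± 13.8 FPKM, Aqp8 at 58.4 ± 35.0, Aqp1 at 28.4 ± 7.49, Aqp11 at 13.9 ± 3.74 and Aqp4 at 1.25 ± 1.27 FPKM (SD). The 5 others lay at or below a mean of 0.163 FPKM. Aqp9 exceeded Aqp8 in each of the 6 livers and Aqp8 exceeded Aqp1 in 5 of 6, with overlapping ranges. The ranges of Aqp1, Aqp11 and Aqp4 did not overlap with each other. Aqp9 was the 597th and Aqp8 the 907th gene by mean liver FPKM. The 10 aquaporins summed to 482 ± 89.7 FPKM in kidneys of vitrified and 421 ± 94.8 FPKM in kidneys of fresh origin, and to 196 ± 34.4 FPKM in livers of vitrified and 210 ± 55.3 FPKM in livers of fresh origin (SD, n = 4, 3, 3 and 3). Aqp1 and Aqp2 made up 47.6% ± 8.69 and 25.8% ± 7.65 of that sum in the 7 kidneys, and Aqp9 and Aqp8 made up 50.6% ± 8.53 and 27.1% ± 11.8 of it in the 6 livers (SD).

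The organ comparison asked which aquaporins differed between kidney and liver of the same origin. With edgeR's quasi-likelihood test over all 13 libraries and Benjamini-Hochberg adjustment at 0.05 over all 14441 genes tested, 9 of the 9 aquaporins tested passed in the vitrified origin, 6 of them higher in kidney and 3 lower. In that comparison 51.1% of all genes passed, 27.2% higher and 23.9% lower. In the fresh origin 8 of 9 passed, 6 higher and 2 lower, where 46.3% of all genes passed, 24.6% higher and 21.7% lower. Aqp5 was under the filter on low counts and is not among the 9. With so large a share of all genes passing, a pass alone does not set the family apart.

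Among the kidney water channels, Aqp1, the constitutive channel of the proximal tubule, was abundant in the kidney and present in the liver. It stood at 204, 278, 182 and 203 FPKM in vitrified and 186, 194 and 238 FPKM in fresh kidneys, and at 19.5, 41.3 and 23.2 FPKM in vitrified and 26.7, 30.1 and 29.7 FPKM in fresh livers. Every kidney lay above every liver. Its log2 fold change of kidney over liver was 1.999 (SE 0.26, edgeR adjusted p = 2.74e-05) in the vitrified and 1.84 (SE 0.27, adjusted p = 8.68e-05) in the fresh origin. Aqp1 is also made by endothelium and red cells. The summed level of 8 endothelial genes was 392 to 873 CPM in vitrified and 441 to 631 CPM in fresh kidneys, and 118 to 248 CPM in vitrified and 165 to 219 CPM in fresh livers. The erythroid sum over 7 genes was 564 to 852 CPM in vitrified and 332 to 923 CPM in fresh kidneys, against 292 to 468 CPM in vitrified and 234 to 378 CPM in fresh livers. In the edgeR fits the median log2 fold change of the erythroid genes was only 0.08 in the vitrified and -0.14 in the fresh origin. In each origin 1 of them was called higher in kidney and 1 lower. Alas2 was at 2.61 to 10.5 CPM in kidneys and 12.4 to 120 CPM in livers. The endothelial medians were 1.05 and 0.85. No gene of either list was at 0 in any library, and their part in the Aqp1 level was not tested.

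Aqp2, the vasopressin-regulated channel of principal cells, stood at 106, 114, 108 and 224 FPKM in vitrified and 142, 43.8 and 113 FPKM in fresh kidneys. In the livers it had 5, 6 and 1 counts in the vitrified and 8, 6 and 0 counts in the fresh origin. Kidney vitrified 4 was the highest and kidney fresh 2 the lowest kidney, and both were far above each liver. Kidney over liver, the log2 fold change was 8.87 (SE 0.74, edgeR adjusted p = 5.74e-07) in the vitrified and 8.11 (SE 0.72, adjusted p = 1.31e-06) in the fresh origin. The fresh value was 8.76 without liver fresh 1 and 7.52 without liver fresh 3, where the count was 0, and it passed in both.

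Aqp3, the basolateral aquaglyceroporin of the same cells, was steadier. It stood at 53.7, 43.5, 50.6 and 69.0 FPKM in vitrified and 60.5, 33.3 and 46.4 FPKM in fresh kidneys, with 2, 2 and 2 counts in vitrified and 3, 4 and 3 counts in fresh livers. Aqp3 had a log2 fold change of 8.81 (SE 0.33, edgeR adjusted p = 6.15e-10) in the vitrified and 7.83 (SE 0.31, adjusted p = 1.74e-09) in the fresh origin, the smallest p-values among the aquaporins in both origins. Between the highest and the lowest kidney Aqp3 spanned 2.07-fold in CPM, Aqp2 5.12-fold and Aqp4 6.75-fold.

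Aqp4, the other basolateral channel of principal cells and the main aquaporin of brain astrocytes, varied most among the 7 aquaporins that exceeded 5 FPKM in each kidney. It stood at 15.2, 11.0, 6.27 and 25.8 FPKM in vitrified and 10.5, 5.44 and 37.8 FPKM in fresh kidneys, and at 0.820, 3.76 and 1.13 FPKM in vitrified and 1.01, 0.440 and 0.340 FPKM in fresh livers. All kidneys lay above all livers, and kidney vitrified 3 and kidney fresh 2 came closest to the highest liver, vitrified 2. The log2 fold change was 1.98 (SE 0.69, edgeR adjusted p = 0.0300) in the vitrified and 3.81 (SE 0.78, adjusted p = 0.00169) in the fresh origin. The vitrified call rested on single libraries. The adjusted p was 0.0964 without liver vitrified 1, 0.0980 without liver vitrified 3, 0.0519 without kidney vitrified 1, 0.0714 without kidney vitrified 4 and 0.0676 with the replicate number as a block. Without liver vitrified 2, the highest liver, the log2 fold change was 2.82 (adjusted p = 0.0106). The fresh value passed in each case, at 2.80 without kidney fresh 3, 4.45 without liver fresh 1 and 2.52 without the 3 libraries near 0 in Y-linked counts.

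Aqp6, the anion-conducting aquaporin of intercalated cell vesicles, stood at 30.1, 36.3, 25.5 and 56.6 FPKM in vitrified and 15.7, 18.3 and 44.3 FPKM in fresh kidneys. The livers had 0, 2 and 0 counts in the vitrified and 1, 3 and 2 counts in the fresh origin. Between organs it differed by a log2 fold change of 9.64 (SE 0.65, edgeR adjusted p = 5.38e-08) in the vitrified and 7.54 (SE 0.58, adjusted p = 2.23e-07) in the fresh origin. As a ratio of summed counts scaled by the library totals, the vitrified value was 1779 with a 95% exact interval of 492 to 14697, which covers counting error only. Without liver vitrified 2 the other vitrified livers were all at 0, and the fitted value, 12.79, is then no bound.

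**Figure D2:**
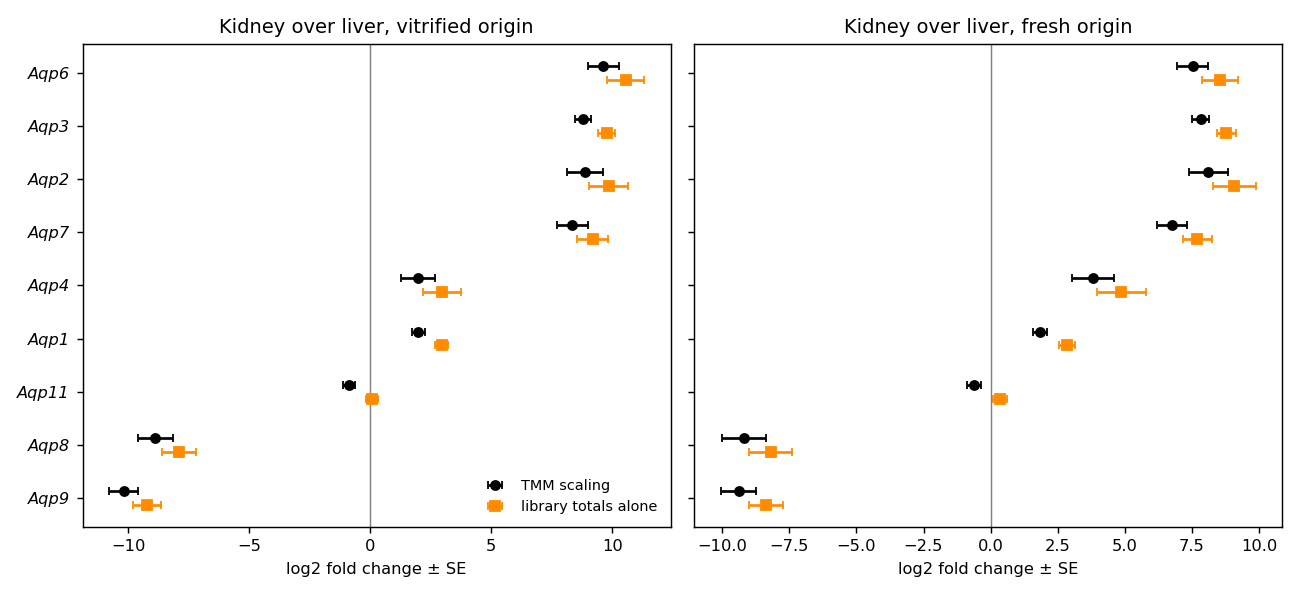
Log2 fold change of kidney over liver (horizontal axes) for the 9 aquaporins tested, in the vitrified origin (left) and the fresh origin (right), with edgeR on TMM-scaled counts (circles) and on counts scaled by library totals alone (squares); bars are ± 1 SE. The 6 upper genes lie above 0 and Aqp8 and Aqp9 below 0 under both scalings, while Aqp11 lies below 0 with TMM and at 0.09 and 0.35 with library totals.

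The aquaglyceroporins divided between the organs. Aqp7, which releases glycerol from fat cells and recovers it in the last part of the proximal tubule, stood at 7.84, 5.72, 6.21 and 5.96 FPKM in vitrified and 7.86, 7.05 and 7.75 FPKM in fresh kidneys. It had 0, 0 and 1 counts in vitrified and 3, 0 and 1 counts in fresh livers, and the log2 fold change was 8.36 (SE 0.65, edgeR adjusted p = 2.03e-07) and 6.76 (SE 0.55, adjusted p = 4.29e-07) in the vitrified and fresh origin. The 2 counting ratios were 823 (95% exact interval 147 to 32541) in the vitrified and 229 (89.1 to 842) in the fresh origin. Without liver vitrified 3, where the other vitrified livers were at 0, the fitted value was 10.70, and without liver fresh 1 the fresh value was 8.07. Adipocyte markers were low in the kidneys, at 32.9 to 48.5 CPM summed over 6 genes in vitrified and 24.7 to 54.1 CPM in fresh kidneys, most of it Fabp4, with up to 4 of the 6 at 0 in a library. Of the windows of 50 bases in Aqp7 transcripts, 3.87% also occur in another gene, the highest share among the aquaporins. How reads from shared windows were counted is not given, so their effect on the Aqp7 counts is not known.

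Aqp9, the hepatocyte glycerol channel, had 17, 9, 3 and 3 counts in vitrified and 12, 5 and 28 counts in fresh kidneys. Its liver levels were 115, 97.7 and 83.5 FPKM in the vitrified and 107, 86.4 and 115 FPKM in the fresh origin. Its log2 fold change of kidney over liver was -10.18 (SE 0.59, edgeR adjusted p = 1.58e-08) in the vitrified and -9.39 (SE 0.65, adjusted p = 9.42e-08) in the fresh origin. Without kidney fresh 3 the fresh value was -10.08. Aqp9 was the steadiest aquaporin of the liver, with a coefficient of variation of 13.7% over 6 livers. Aqp8, which passes water and small solutes in hepatocytes, had 9, 6, 5 and 4 counts in vitrified and 7, 2 and 8 counts in fresh kidneys. Its liver levels were 81.4, 43.2 and 36.6 FPKM in the vitrified and 14.1, 62.5 and 112 FPKM in the fresh origin. The fresh livers enclosed the whole vitrified range, and the highest liver held 7.98 times the CPM of the lowest. The log2 fold change of kidney over liver was -8.87 (SE 0.71, edgeR adjusted p = 4.27e-07) in the vitrified and -9.19 (SE 0.82, adjusted p = 1.40e-06) in the fresh origin, where it was -8.44 without liver fresh 3, the highest liver.

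Aqp11, an aquaporin of the endoplasmic reticulum whose loss gives cystic kidneys in mice, had levels that overlapped between the organs. It stood at 17.4, 16.9, 11.9 and 10.8 FPKM in vitrified and 18.8, 14.97 and 15.6 FPKM in fresh kidneys, and at 8.70, 18.6 and 13.8 FPKM in vitrified and 12.3, 17.7 and 12.0 FPKM in fresh livers. The log2 fold change with TMM scaling was -0.88 (SE 0.25, edgeR adjusted p = 0.00910) in the vitrified and -0.62 (SE 0.27, adjusted p = 0.0722) in the fresh origin. With library totals alone it was 0.09 (adjusted p = 0.764) and 0.35 (adjusted p = 0.244), so the direction depends on the scaling. Library totals alone moved the median log2 fold change of all genes to 0.9998 in the vitrified and 0.98 in the fresh origin, where TMM gave 0.01 and -0.01. The calls then split into 8943 higher and 1297 lower in the vitrified and 8743 and 1244 in the fresh origin, where TMM gave 3934 and 3447, and 3549 and 3138. CPM and FPKM levels set side by side between organs carry this shift. The ratio of FPKM to CPM, fixed by length for most of the genes, varied 1.35-fold between libraries for Aqp11.

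Aqp5, the gland and lung channel, had 3, 5, 6 and 11 counts in vitrified and 1, 3 and 5 counts in fresh kidneys, and 2, 0 and 0 counts in vitrified and 0, 1 and 2 counts in fresh livers. The ratio of kidney to liver counts, scaled by the totals, was 9.998 (95% exact interval 2.49 to 87.1) in the vitrified and 3.06 (0.764 to 17.6) in the fresh origin. Tested with no filter on low counts, Aqp5 did not pass in either origin (edgeR adjusted p = 0.125 in the vitrified and 0.722 in the fresh). It passed in the vitrified origin by limma on FPKM, with a log2 fold change of 1.57 on the scale of log2(FPKM + 0.1) (adjusted p = 0.00860) and 0.32 on that of log2(FPKM + 1) (adjusted p = 0.0157), and not in the fresh origin (adjusted p = 0.416 and 0.519). The median of all genes on these scales in the vitrified origin was 0.93 and 0.62, so the value of Aqp5 was above it on the first scale and below it on the second. Aqp5 reached at most 0.49 FPKM in a library. Adding 1 to levels that low keeps the second value small, so it does not show a lower relative level. Without overlap between organs were 9 of 10 aquaporins in the vitrified and 8 of 10 in the fresh origin, against 66.8% and 77.3% of all genes tested. The 10 include Aqp5, which was not among the genes tested and was without overlap only in the vitrified origin. An annotated non-coding gene, Gm34765, overlaps Aqp2, Aqp5 and Aqp6, and others overlap Aqp4 (A830021F12Rik) and Aqp9 (Gm32714). Whether the counting used strand is not given in the sources used here, so reads of these overlapping genes cannot be told apart from theirs.

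Aqp2, Aqp3, Aqp6 and Aqp7 had few counts in the livers, unlike Aqp1 and Aqp4. For Aqp1, mean liver CPM was 12.9% of mean kidney CPM in the vitrified and 14.0% in the fresh origin. For Aqp4 it was 12.8% and 3.40%, with liver vitrified 2 at 340 counts and the other vitrified livers at 75 and 101. The mean liver CPM of Aqp2 was 0.104% of its mean kidney CPM in the vitrified and 0.182% in the fresh origin. For Aqp3 the 2 values were 0.107% and 0.219%, for Aqp6 0.0557% and 0.252%, and for Aqp7 0.124% and 0.439%. Among other kidney transcripts, Umod, which encodes uromodulin of the thick ascending limb, gave 0.147% and 0.228%, Slc34a1, the phosphate transporter of the proximal tubule, 0.172% and 0.195%, and Kap, an abundant proximal tubule transcript, 0.177% and 0.255%. Not all genes of the kidney lists were so low in the livers. Slc13a3 of the proximal tubule list was at 8.08 to 14.7 CPM in livers and 449 to 613 CPM in kidneys. Atp6v0d2 of the intercalated cell list was at 0.547 to 11.0 and 16.7 to 53.8 CPM. In the other direction, mean kidney CPM of Aqp9 was 0.166% of its mean liver CPM in the vitrified and 0.299% in the fresh origin, and that of Aqp8 0.411% and 0.326%. The hepatocyte genes were unlike each other in this respect, at 0.122% and 0.229% for Alb (albumin), 8.05% and 3.62% for Apob (apolipoprotein B) and 4.29% and 3.61% for Ttr (transthyretin). The kidneys with the fewest Aqp9 counts were vitrified 3 and vitrified 4, at 0.154 and 0.170 CPM. They were the lowest kidneys in Alb, at 1.28 and 10.5 CPM, but vitrified 3 was the highest in Ttr, at 529 CPM, and the second highest in Apob, at 644 CPM. A source of these few reads was not tested.

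**Figure D3:**
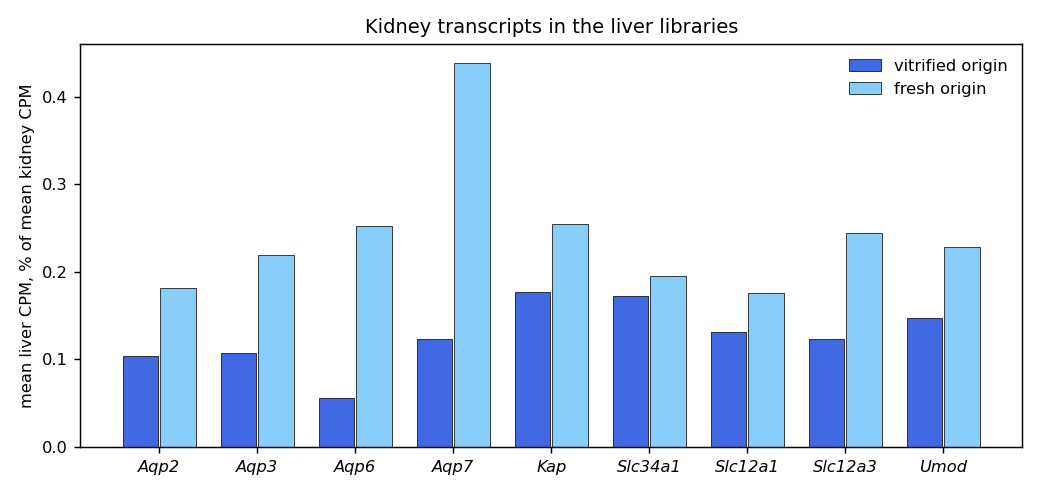
Mean CPM in the livers as a percentage of mean CPM in the kidneys of the same origin (vertical axis, linear from 0) for 4 kidney aquaporins and 5 other kidney genes; dark bars are vitrified and light bars fresh origin, each from 3 livers. The bars lie between 0.0557% and 0.439%, and for each of the 9 genes the bar of fresh origin is the higher. The 5 other genes are a choice, and some genes of the marker lists, such as Slc13a3, held a larger share in the livers.

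The origin comparison asked whether aquaporin transcripts differed in adult offspring of vitrified oocytes. None passed the test in either organ. In the kidney 0 of 8 aquaporins tested passed, with 0% of all 14018 genes called by edgeR and 2.05% at an unadjusted p under 0.05, and in the liver 0 of 5 passed, with 0% of 12335 genes called and 3.17% at an unadjusted p under 0.05. DESeq2 called 10 genes in each organ, and 0 aquaporins. The difference between organs in the origin effect was not called for any of 9 aquaporins (edgeR adjusted p = 0.9999 for each, with 0% of 14441 genes called and 1.90% at an unadjusted p under 0.05, and with 0 calls by DESeq2).

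In the kidney, Aqp2, Aqp3 and Aqp6 had mean levels that were higher in the vitrified origin, each within the spread of the samples, while Aqp4, also of principal cells, had a lower mean there. Aqp2 averaged 138 ± 57.5 FPKM in vitrified and 99.7 ± 50.5 FPKM in fresh kidneys (SD, n = 4 and 3), with a log2 fold change of 0.45 and a 95% interval from -0.43 to 1.33. Aqp3 averaged 54.2 ± 10.8 and 46.7 ± 13.6 FPKM, with 0.21 (-0.31 to 0.72). Aqp6 averaged 37.1 ± 13.7 FPKM in vitrified and 26.1 ± 15.8 FPKM in fresh kidneys, with 0.56 (-0.20 to 1.33). The edgeR adjusted p was 0.999 for each aquaporin tested in the kidney. Without kidney vitrified 4 the log2 fold change of Aqp2 was 0.22.

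The remaining kidney channels showed smaller or less certain differences. Aqp1 averaged 217 ± 41.8 FPKM in vitrified and 206 ± 28.0 FPKM in fresh kidneys (log2 fold change 0.11, 95% interval -0.43 to 0.65). Aqp7 averaged 6.43 ± 0.959 and 7.55 ± 0.439 FPKM, with -0.22 (-0.64 to 0.21), and Aqp11 averaged 14.2 ± 3.36 and 16.5 ± 2.08 FPKM, with -0.17 (-0.64 to 0.30). Aqp4, at 14.6 ± 8.33 FPKM in vitrified and 17.9 ± 17.4 FPKM in fresh kidneys, had -0.27 (-1.65 to 1.10), and without kidney fresh 3 its value was 0.73. Of the aquaporins in the kidney, none had vitrified and fresh libraries without overlap, where 2.89% of all genes tested did.

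In the liver, Aqp9 averaged 98.6 ± 15.7 FPKM in vitrified and 103 ± 14.7 FPKM in fresh livers (SD, n = 3 each), with a log2 fold change of -0.03 and a 95% interval from -0.51 to 0.45. Aqp1 averaged 28.0 ± 11.7 and 28.8 ± 1.85 FPKM (-0.03, interval -0.60 to 0.53), and Aqp11 13.7 ± 4.96 and 14.0 ± 3.22 FPKM (0.10, interval -0.54 to 0.75). For Aqp8 the means were 53.7 ± 24.2 and 63.0 ± 49.1 FPKM, and the interval of the log2 fold change of -0.19 ran from -1.96 to 1.58. Aqp4 had the largest difference, with 75, 340 and 101 counts in vitrified and 91, 39 and 32 counts in fresh livers. Its log2 fold change was 1.55 (SE 0.65, unadjusted p = 0.0467, edgeR adjusted p = 0.991), and vitrified 1 lay below fresh 1. Without liver vitrified 2 the value was 0.74.

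Aqp3 was the only aquaporin whose liver groups did not overlap by origin, with 2, 2 and 2 counts in the vitrified and 3, 4 and 3 counts in the fresh origin. Such a gap occurred in 7.61% of the liver genes tested, and Aqp3 itself was under the filter on low counts. Kap in the same livers was 37.6 to 44.1 CPM in vitrified and 52.7 to 54.0 CPM in fresh livers, again without overlap. Aqp2, Aqp6 and Aqp7, also low in the livers, overlapped by origin. A source of the Aqp3 and Kap reads in the livers was not tested.

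**Figure D4:**
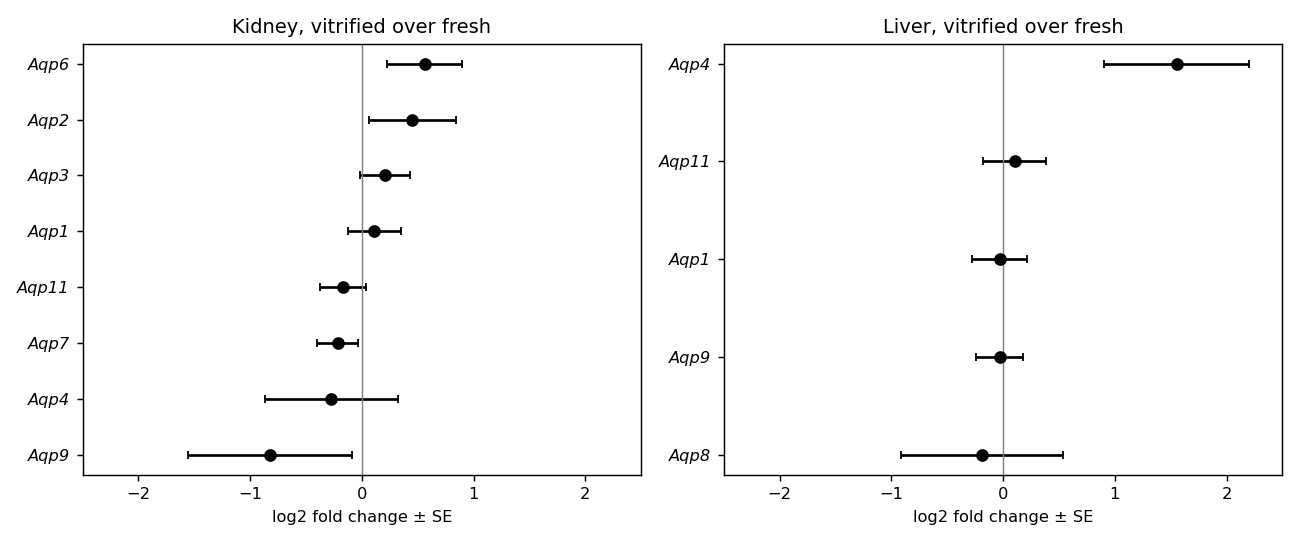
Log2 fold change of vitrified over fresh origin (horizontal axes, bars ± 1 SE) from edgeR for the 8 aquaporins tested in the kidney (left) and the 5 tested in the liver (right). Values run from -0.82 for Aqp9 to 0.56 for Aqp6 in the kidney and from -0.19 for Aqp8 to 1.55 for Aqp4 in the liver, and none passed the test. The kidney value of Aqp9 rests on 3 to 28 counts per library.

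The distal channels differed in how closely they varied with the summed markers of their own cells between kidney libraries. The summed level of 7 intercalated cell genes was 242, 268, 259 and 473 CPM in vitrified and 136, 162 and 355 CPM in fresh kidneys. Aqp6 per unit of that sum lay between 0.164 and 0.231, a 1.41-fold span, although Aqp6 itself spanned 3.66-fold. The sum of 7 principal cell genes was 176, 172, 131 and 378 CPM in vitrified and 106, 122 and 267 CPM in fresh kidneys. Aqp2 per unit of that sum spanned 3.71-fold, from 0.511 in kidney fresh 2 to 1.90 in kidney fresh 1. Aqp2 itself spanned 5.12-fold. For Aqp3 the ratio spanned 3.28-fold, wider than the 2.07-fold of Aqp3 itself, and for Aqp4 it spanned 3.07-fold, against 6.75-fold for Aqp4 itself. For the origin comparison in the kidney, 7 of 7 principal and 7 of 7 intercalated genes had a log2 fold change above 0, with medians of 0.31 and 0.61 against 0.02 over all genes tested, and 0 of either list passed. No gene of either list was at 0 in a kidney. Such a lean was not particular to these lists. Above 0 were also 8 of 8 endothelial and 5 of 6 thick ascending limb genes, against 6 of 11 proximal tubule and 3 of 6 podocyte genes. Each channel was set against the list of its own cells only. The principal and intercalated sums were both highest in kidney vitrified 4 and kidney fresh 3. A ratio to 1 list therefore does not show that a channel followed that cell type alone. The part of these cells in the levels of Aqp2, Aqp3, Aqp4 and Aqp6 was not tested.

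**Figure D5:**
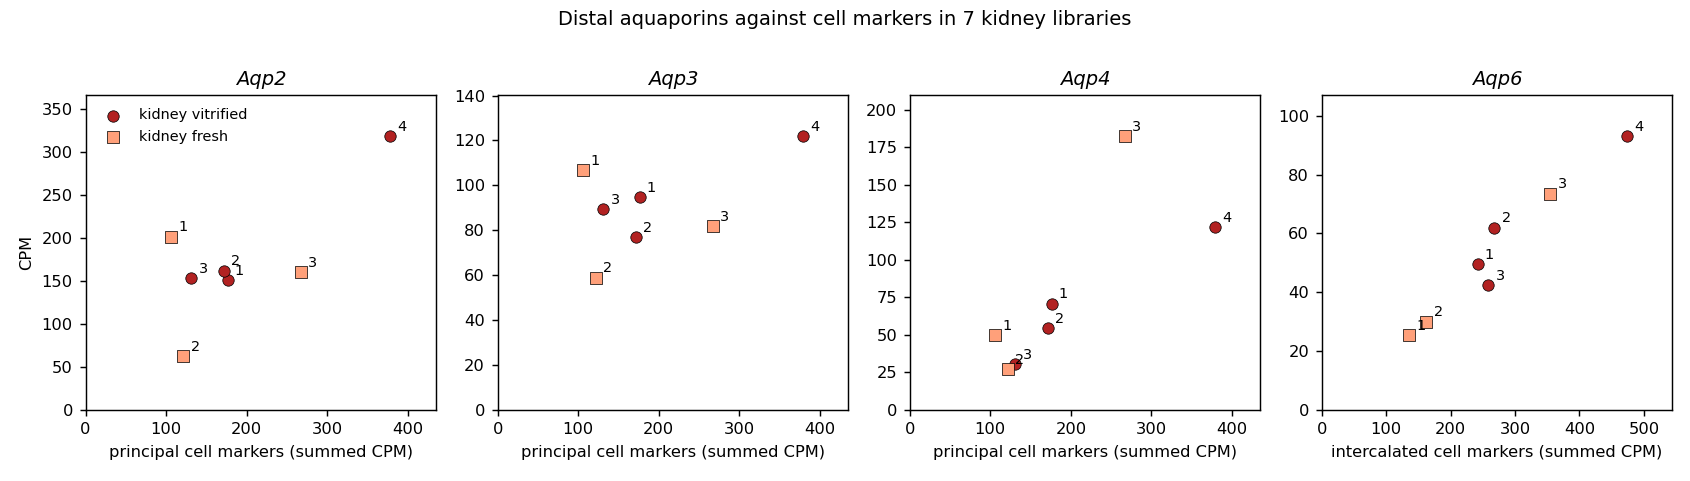
CPM of Aqp2, Aqp3 and Aqp4 against the summed CPM of 7 principal cell genes, and of Aqp6 against the summed CPM of 7 intercalated cell genes (both axes linear from 0), in the 7 kidneys; circles are vitrified and squares fresh origin, with the replicate number beside each. Aqp6 lies close to a line through the origin, while Aqp2 in kidney fresh 1 and fresh 2 differs 3.24-fold at like marker sums.

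Kidney vitrified 4 and kidney fresh 3, both near 0 in Y-linked counts, were the 2 highest kidneys for Aqp4, at 122 and 182 CPM, and for Aqp6, at 92.9 and 73.4 CPM. They also had the 2 highest sums of principal and intercalated genes. The same held for other lists, among them thin limb, thick ascending limb, distal convoluted tubule, podocyte and endothelium. The podocyte sum was 1023 and 758 CPM in them, and that of the thick ascending limb 8900 and 7664 CPM. Their sums of the proximal tubule list were the 2 lowest, at 15104 and 20956 CPM. Kap, the most abundant gene of that list, was at 4849 and 9706 CPM in them and between 26270 and 31456 CPM in the other 5. The list did not go 1 way. Slc22a6 was also low, at 288 and 347 CPM against 1052 to 1484 CPM in the other 5. Miox was highest in these 2 kidneys, at 1400 and 1408 CPM against 509 to 1232 CPM. So was Slc22a8, at 640 and 599 CPM against 199 to 419 CPM. The low sums therefore do not show that proximal tubule transcripts were lower as a set. For Aqp2 they stood at 318 CPM, the highest kidney, and 160 CPM, and for Aqp1 at 534 and 625 CPM, inside the range of the other 5 kidneys. What sets these libraries apart was not tested. Without the 3 libraries near 0 in Y-linked counts, edgeR called 9 of 9 and 8 of 9 aquaporins between organs in the vitrified and fresh origin, and 0 between origins.

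The 3 gene lists around the aquaporins were followed by the same fits. Urine concentration transport, 21 genes of salt, urea and osmolyte handling, was higher in kidney for 19 and lower for 1 in the vitrified origin, and higher for 20 and lower for 1 in the fresh origin, where of all genes 27.2% were higher and 23.9% lower in the vitrified and 24.6% and 21.7% in the fresh origin. Its median log2 fold changes were 7.71 and 7.58, against 0.01 and -0.01 over all genes. Fxyd2, a regulator of the sodium pump, averaged 761 ± 153 CPM in fresh kidneys and 1.73 ± 0.425 CPM in fresh livers (SD, n = 3 each; log2 fold change 7.78, SE 0.32, edgeR adjusted p = 1.80e-09). Slc12a1, the salt transporter of the thick ascending limb, had 8.14 (SE 0.40, adjusted p = 6.33e-09) and Umod 7.76 (SE 0.42, adjusted p = 1.10e-08). Vasopressin signalling and Aqp2 regulation, 29 genes, divided into 13 higher and 2 lower in the vitrified and 13 higher and 4 lower in the fresh origin, with medians of 0.45 and 0.66. In either direction 51.1% of all genes passed in the vitrified and 46.3% in the fresh origin. The share called in either direction in the vasopressin list is near that of genes at large in the vitrified origin and above it in the fresh origin. By direction its calls leaned to the kidney more than those of all genes, given above for the urine list. Avpr2, the vasopressin receptor of principal cells, averaged 12.0 ± 6.56 CPM in fresh kidneys and 0.127 ± 0.0654 CPM in fresh livers (log2 fold change 5.50, SE 0.73, edgeR adjusted p = 3.56e-05). Ptger3, a prostaglandin E2 receptor, had 7.11 (SE 0.66, adjusted p = 1.49e-06) and Gata3, a transcription factor of the collecting duct, 4.89 (SE 0.60, adjusted p = 1.83e-05).

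Glycerol release and use, 22 genes, was higher in kidney for 3 and lower for 8 in the vitrified origin, and higher for 2 and lower for 9 in the fresh origin, with medians of -0.34 and -0.31. Against the same 51.1% and 46.3% of all genes, the share called in either direction is near that of genes at large in both origins. By direction the calls leaned to the liver, where of all genes 27.2% and 24.6% were higher in kidney and 23.9% and 21.7% lower. Lipc, the hepatic lipase, averaged 0.678 ± 0.878 CPM in fresh kidneys and 164 ± 78.2 CPM in fresh livers (SD, n = 3 each; log2 fold change -8.95, SE 0.86, edgeR adjusted p = 2.92e-06). Agpat2 and Dgat2, enzymes of triglyceride synthesis, had -3.27 (SE 0.28, adjusted p = 6.36e-07) and -2.44 (SE 0.25, adjusted p = 2.88e-06). Between origins 0 genes of the 3 lists passed in either organ. The kidney median of urine concentration transport was 0.25 with 16 of 21 above 0, against 0.02 over all genes tested. Its smallest p there belonged to Slc14a1, a urea transporter, at 11.5 ± 5.71 CPM in vitrified and 6.24 ± 3.28 CPM in fresh kidneys (SD, n = 4 and 3; unadjusted p = 0.0386, edgeR adjusted p = 0.999), followed by Fxyd4, at 23.5 ± 7.40 and 13.5 ± 10.1 CPM (adjusted p = 0.999). Pde4d, a cAMP-degrading enzyme on the vasopressin list, was at 7.06 ± 3.78 CPM in vitrified and 12.8 ± 3.61 CPM in fresh kidneys (unadjusted p = 0.0402, edgeR adjusted p = 0.999). In the liver, G6pc, the last enzyme of glucose release, was at 51.7 ± 27.9 CPM in vitrified and 134 ± 58.7 CPM in fresh livers (unadjusted p = 0.0348, edgeR adjusted p = 0.991). The list medians there were -0.11 for glycerol, -0.18 for urine concentration and 0.03 for vasopressin, against 0.0037 over all genes tested.

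Likeness between genes across libraries was described by Pearson's r of log2(CPM + 1), which libraries of unlike cell make-up and depth also shape. Over the 7 kidneys the profile of Aqp3 was most like that of Emilin2 (r = 0.99), Ints12 (r = 0.94) and Aqp2 (r = 0.93), and 7 of 12830 genes exceeded 0.9. For Aqp2 they were Tnip2, Kif5c and Emilin2 (r = 0.96, 0.95 and 0.95; 22 genes over 0.9). Without the 2 kidneys farthest from the median of Aqp2, the r of Aqp2 with Aqp3 was 0.59 and that with Kif5c -0.25, so these rest largely on 2 libraries. Aqp6 was most like Ccdc106, Rcan2 and Gcgr (r = 0.997, 0.994 and 0.992), and its r stayed at 0.99 with each without 2 libraries; 398 genes exceeded 0.9. Aqp4 was most like Kifbp, Pgr and Rnf13 (each r = 0.99; 335 genes over 0.9), Aqp1 like Tmco1, Nme3 and Polr2e (r = 0.995, 0.990 and 0.990; 344 genes), Aqp7 like Galnt11, Elp4 and Ccnb1 (r = 0.98, 0.98 and 0.97; 36 genes), and Aqp11 like Coq3, Lonp2 and Sprr2a2 (r = 0.99, 0.98 and 0.96; 45 genes).

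Over the 6 livers Aqp8 was most like Slc16a11, Paox and Arl3 (r = 0.998, 0.985 and 0.984), with 118 of 11291 genes over 0.9. Aqp9 was most like Pnrc1, Atoh8 and Cacnb4 (r = 0.99, 0.98 and 0.97; 47 genes over 0.9). Aqp1 was most like Pkn2, Smchd1 and Ctnna1 (each r = 0.99; 229 genes), and Aqp4 like Alyref2, Dusp12 and Dnase2b (r = 0.99, 0.98 and 0.98; 50 genes). Aqp11 was most like Las1l, Nap1l4 and Rabif (r = 0.98, 0.96 and 0.96; 61 genes), and Las1l shares 0.127% of the 50-base windows of Aqp11. With 7 and 6 libraries these values are a description of the libraries only.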

How the data were processed

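Liver and kidney RNA of 13 mouse libraries was analysed from 1 deposited table that the authors made. It gives estimated counts and FPKM per library for 22298 genes. The submitters' processing notes name the build GRCm39 and the tools DESeq2, StringTie 1.3.1, HISAT2 2.4 and Bowtie2 2.2.8. Roles of the tools, strand use and counting settings were not given in the sources used here. Between 7.63% and 9.14% of the deposited estimated counts per library were not whole, and counts were rounded. Totals lay between 16073245 and 19964918, and 4051 genes had no count. Replicates differed by more than counting noise, the closest pair with a chi-square of 21.04 per gene.

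Groups follow the tissue and treatment labels. edgeR 4.0.16 in R 4.3.3 was used with TMM scaling, its default filter, robust dispersions and the quasi-likelihood test in its legacy form. The origin comparisons were fitted within each organ, and the organ comparisons and the organ difference in 1 model over all libraries, with no covariates. The threshold was 0.05 on p adjusted by Benjamini-Hochberg over all genes tested. Fold changes are log2, with an SE and 95% interval from the test statistic; for low counts the p can be larger than they imply. CPM uses library totals, and FPKM is as deposited. Counting intervals cover counting error only. Alternatives used DESeq2 1.42.0, limma 3.58.1, other scalings and filters, and left-out libraries. The steps were tested on simulated counts.

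All 10 members are named whatever their values. From each of 3 function lists, the 3 members with the smallest p between organs in the fresh origin and up to 2 in each origin comparison could be named. Likeness takes the 3 genes with the highest r among genes of at least 1 CPM on average, leaving out predicted genes. The members, the lists of functions and of 16 cell types, and the rules were chosen with earlier results of these data known.

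Same-numbered kidney and liver libraries of fresh origin deviated together over genes (r = 0.22, 0.18 and 0.20), which met the rule for pairing set at 0.1, though the labels do not say that they share a mouse. With the replicate block 8 of 9 aquaporins passed in that comparison, as without it, among 7013 genes called.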

Additional observations from a re-analysis of the deposited data

Results flagged for a closer look

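Aqp2 in kidney vitrified 4 stood apart from the other kidneys of vitrified origin, at 318 CPM and 224 FPKM, where the other 3 lay between 151 and 162 CPM and between 106 and 114 FPKM. The gap to the nearest of them was 0.933 of the range of the group on both scales, above Dixon's 95% critical value for 4 samples. Both scales hold the same counts, so this is 1 observation. The group of 4 vitrified kidneys was examined for 20 series of values, the 10 aquaporins on 2 scales, and chance flags about 1 in 20. In the same library the sums of principal and intercalated cell genes were also the highest, at 378 and 473 CPM, and Aqp2 per unit of the principal cell sum was 0.840, inside the range of the other kidneys. The thin limb, thick ascending limb, distal convoluted tubule, podocyte and endothelium sums were highest there too, so the shift was not particular to the collecting duct lists. The part of any of these cells in the Aqp2 level was not tested.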

How the results depend on the processing

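Of 934 alternative values for 40 fold changes of aquaporins, 883 kept their direction and their side of the threshold. In the organ comparisons this held in each alternative for Aqp1, Aqp2, Aqp3, Aqp6, Aqp7, Aqp8 and Aqp9. Aqp11 in the vitrified origin turned to 0.085 with library totals, to 0.083 with log2(FPKM + 1), with or without a filter, and to 0.091 with log2(FPKM + 0.1), and in the fresh origin to 0.35, 0.23 and 0.25. Aqp11 in the fresh origin passed without liver fresh 3 (-0.78), without liver vitrified 1 (-0.62) and in a fit of its 2 groups alone (-0.59). Aqp4 in the vitrified origin failed without liver vitrified 1 (1.63), liver vitrified 3 (1.78), kidney vitrified 1 (1.96) or kidney vitrified 4 (1.67). The cause was not tested.

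Between origins no aquaporin passed under any alternative, and these values, none of them called, changed sign. In the liver, Aqp8 was 0.16 with limma-voom, 0.11 with log2(FPKM + 1), with or without a filter, 0.12 with log2(FPKM + 0.1), and 0.55 without the libraries near 0 in Y-linked counts. Without those libraries Aqp9 was 0.064 and Aqp11 -0.056, and Aqp11 was -0.065 and -0.072 with the 2 FPKM scales. Leaving out 1 library gave -0.31 to 0.17 for Aqp1, -0.66 to 0.55 for Aqp8, -0.15 to 0.064 for Aqp9 and -0.056 to 0.33 for Aqp11. In the kidney, Aqp4 was 0.00387 with limma-voom and 0.42 without the Y-low libraries, where Aqp9 was 0.15, and leaving out 1 library gave -0.075 to 0.20 for Aqp1 and -0.69 to 0.73 for Aqp4. In the difference between organs, Aqp7 was -0.17 with log2(FPKM + 1), Aqp8 -0.089 and -0.0013 with the 2 FPKM scales and -0.0060 without the Y-low libraries, and Aqp9 0.10 without them. Leaving out 1 library there gave -0.047 to 0.44 for Aqp1 and -0.43 to 0.79 for Aqp8.

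The number of genes called between origins was 0 in both organs. DESeq2 called 10 in each, and in the kidney no filter on low counts and the newer quasi-likelihood method called 2 each and log2(FPKM + 0.1) called 3. Leaving out 1 library gave 0 to 1 in the liver and 0 to 3 in the kidney. No aquaporin was among them.

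With the replicate number as a block, Aqp4 in the vitrified organ comparison was 1.83 and did not pass (edgeR adjusted p = 0.0676), Aqp8 between liver origins was 0.047, and no other call of an aquaporin changed. The pairing correlations of same-numbered libraries were 0.09, 0.03 and 0.30 between organs of vitrified origin, 0.04, -0.12 and -0.05 between liver origins, and 0.27, -0.03 and -0.40 between kidney origins. None of these 3 sets met the rule of 0.1 in each pair, though the 0.30 of the vitrified replicates 3 exceeded each fresh pair. The labels do not say whether any kidney and liver share a mouse. The block gave 7320 calls between organs in the vitrified origin and 0 between origins in each organ. Depth limits Aqp5 in all libraries, and Aqp2, Aqp3, Aqp6 and Aqp7 in the livers and Aqp8 and Aqp9 in the kidneys, where single counts decide the values.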

Other observations

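The aquaporin genes left out of the rule were also looked up in the table. Mip, the lens aquaporin, had between 0 and 1 counts in each library, and Aqp12, a pancreatic one, had 0 counts in all 13.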
